A study of Mus musculus with 6 samples.

Results

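The transcripts described here are those of 8 neuropeptide precursor genes, Calca, Tac1, Gal, Sst, Vip, Npy, Penk and Cck, which were picked by gene symbol out of 39174 genes measured in mouse sciatic nerve. Cck heads the set because the study had called it between the genotypes on these same libraries, and the other members were joined to it with earlier results of these data known. The levels by genotype of all 8 are therefore a description, with no test. Whole sciatic nerves came from adult mice, which the study's text gives as a year old, and were sequenced as poly(A) RNA from 3 wild-type and 3 Plekhg5-/- (Plekhg5-deficient, here also mutant) animals. The wild-type libraries carry the numbers 2, 4 and 5 and the Plekhg5-deficient libraries the numbers 2, 3 and 5, and nothing in the labels says that a shared number marks a shared litter, day or run. The deletion is not restricted to a cell type by any label, the nerves were not sorted, and no source used here gives the sex of the animals or describes the allele. Levels are FPKM, fragments scaled by transcript length and sequencing depth, divided by 1 scaling factor per library.

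Neuropeptides are made as long precursors, cut by prohormone convertases, trimmed and often amidated, and stored in dense-core granules until they are released onto G protein-coupled receptors. In the sciatic nerve the best known sources are sensory neurons, whose cell bodies lie in the dorsal root ganglia and which use calcitonin gene-related peptide (from Calca), substance P (from Tac1) and galanin (from Gal), and sympathetic neurons, which use neuropeptide Y (from Npy). Cholecystokinin (from Cck), somatostatin (from Sst) and vasoactive intestinal peptide (from Vip) are abundant peptides of the brain and the gut, and enkephalins (from Penk) are opioid peptides that non-neuronal cells also make.

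Several of these genes are textbook targets of the cAMP response element (CRE), so the promoters are shown with that motif marked. RefSeq promoters of GRCm38.p6 were found for 7 of the 8 genes, Penk being the exception, and the 250 bases before each start were searched on both strands. The full palindrome TGACGTCA was found in 1 of the 7 (Sst) and in 1.55% of 32851 promoters of the same length. Its core TGACG, which the palindrome holds on each strand, was found in 5 of the 7 and in 17.8% of all promoters. In the 30 bases below, read 5′ to 3′ on the strand of the gene, capitals mark the core, its reverse complement CGTCA or the palindrome.
Cck: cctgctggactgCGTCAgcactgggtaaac
Sst: cgcctccttggcTGACGTCAgagagagagt
Vip: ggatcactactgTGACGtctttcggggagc
Calca: gaagcacagaggTGACGcaatctgtctggg
Tac1: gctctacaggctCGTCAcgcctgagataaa

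The motif began 47 bases before the start of Cck, 48 before that of Sst, 79 before that of Vip, 65 before that of Calca and 43 before that of Tac1. The windows of Cck, Sst and Calca lie on the minus strand at chr9:121495724-121495753, chr16:23890875-23890904 and chr7:114636405-114636434, and those of Vip and Tac1 on the plus strand at chr10:5639127-5639156 and chr6:7555006-7555035. Starts here are those of RefSeq. The authors' span of Tac1 begins further upstream, at 7554879, so the Tac1 window shown lies inside that span. Tac1 held a second core further upstream, and the windows of Npy and Gal held none. TATAAA was found in 1 of the 7 (Vip, against 12.4% of all promoters) and CANNTG, the E-box, in 4 of the 7 (66.2%). The whole 250 bases before the start of Cck (chr9:121495695-121495944, minus strand), the member with the largest ratio between the genotypes, read as follows with the same core in capitals.
Cck promoter: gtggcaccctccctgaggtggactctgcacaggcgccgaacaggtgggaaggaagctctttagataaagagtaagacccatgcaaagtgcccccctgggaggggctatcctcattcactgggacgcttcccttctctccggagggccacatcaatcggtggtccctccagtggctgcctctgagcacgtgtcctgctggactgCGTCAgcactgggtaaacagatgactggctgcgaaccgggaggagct

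Plekhg5 itself was at 3.65, 4.13 and 5.26 FPKM in nerves 2, 4 and 5 of the wild-type and at 0.141, 0.140 and 0.0521 FPKM in mutant nerves 2, 3 and 5, which fits the labels. The tests below cover 21285 genes whose mean reached 0.1 FPKM in at least 1 genotype. Of these, 2 were lower (0.0094%) and 6 higher (0.0282%) in the mutants at an adjusted p under 0.05 (limma with Benjamini-Hochberg adjustment), and at an unadjusted p under 0.05 the counts were 573 lower (2.69%) and 514 higher (2.41%). Plekhg5 itself was among the lower genes (log2 fold change -2.26, adjusted p = 0.0380 from limma). For any 1 gene, permuting 3 nerves against 3 gives an exact two-sided p of at least 0.1. The libraries numbered 5 stood apart from the other 4 in both genotypes. Most transcripts of sensory neurons were far lower there, haemoglobin took 16.0% of all FPKM in mutant nerve 5 against 0.507% to 2.56% elsewhere, and T-cell and B-cell transcripts were highest in wild-type nerve 5. For some genes the log2 difference is also given without both libraries numbered 5, a comparison chosen after the values had been seen. The depth of the libraries is not given, so the precision of a level is taken from the 95% interval that Cufflinks reported for each library, which covers counting and assignment error alone.

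All 8 members passed the filter on low values. In wild-type nerves the mean level, per length, was highest for Calca (228 FPKM ± 236, SD, n = 3), followed by Tac1 (115 ± 128), Penk (31.4 ± 19.4), Cck (18.9 ± 13.0), Sst (10.1 ± 1.79), Gal (8.63 ± 8.78), Npy (6.01 ± 1.88) and Vip (0.473 ± 0.196). In mutant nerves the order was Calca (336 FPKM ± 361), Tac1 (159 ± 170), Penk (26.3 ± 8.09), Npy (10.8 ± 6.16), Gal (9.75 ± 9.48), Sst (3.63 ± 2.40), Cck (1.13 ± 0.605) and Vip (0.132 ± 0.0182). Neighbours in either order had overlapping levels over the 3 nerves, with 2 exceptions. Vip was below its neighbour (Npy in the wild-type, Cck in the mutants) in every nerve, and the lowest mutant level of Penk (17.0 FPKM) was just above the highest of Npy (16.9 FPKM), with overlapping intervals. Compared within each library, Tac1 was also below Calca in every nerve of both genotypes, though their ranges over nerves overlapped. The mean of 4 members was lower and that of 4 was higher on the log2 scale in the mutants, where 48.9% of all genes tested were lower and 51.1% higher. For 3 members (Cck, Sst and Vip) every mutant nerve was below every wild-type nerve, as for 5.88% of all genes tested, and for 0 members was it above (5.67% of all genes). Since Cck was chosen on this contrast, nothing is read from these counts. Within a genotype the levels of Calca, Tac1 and Gal spread far more than those of Sst, Npy and Penk, as the plot of the 8 transcripts shows.

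**Figure D1:**
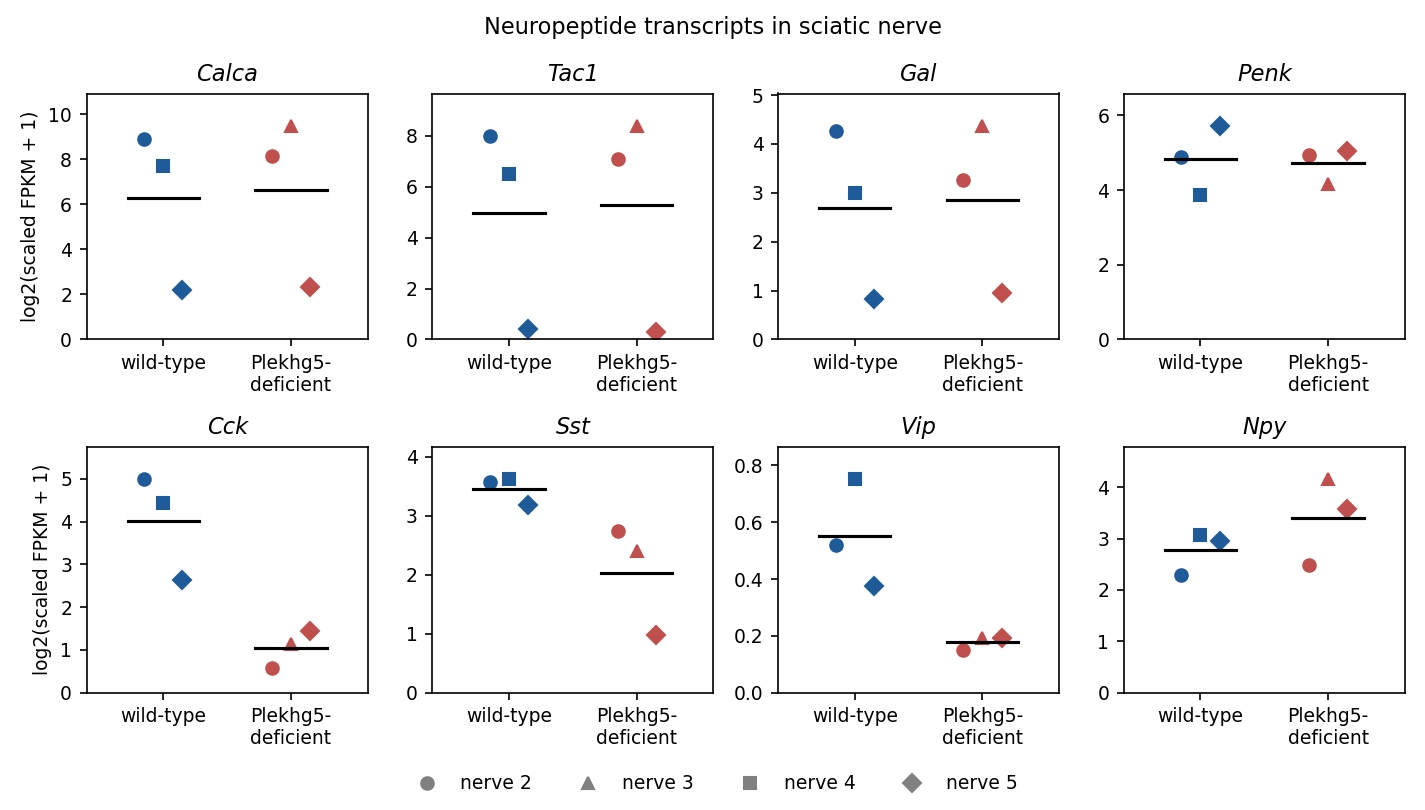
Level of each of the 8 neuropeptide transcripts, as log2(scaled FPKM + 1), in 3 wild-type (blue) and 3 Plekhg5-deficient (red) sciatic nerves; each symbol is 1 library, its shape gives the library's number, and the bar is the mean of 3. For Calca, Tac1 and Gal the libraries numbered 5 (diamonds) lie far below the others in both genotypes, while for Cck, Sst and Vip the genotypes do not overlap.

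The sensory peptide transcripts were high in 4 nerves and far lower in the libraries numbered 5, in both genotypes. Calca, which encodes calcitonin and, by splicing, calcitonin gene-related peptide, a vasodilator of sensory endings, spans 114631480 to 114636357 on chromosome 7 (GRCm38). Its levels were 474, 206 and 3.58 FPKM in nerves 2, 4 and 5 of the wild-type and 285, 720 and 3.95 FPKM in mutant nerves 2, 3 and 5. The genotypes overlapped, and the highest library was 201 times the lowest. Among the genes tested Calca ranked between 94 and 374 by level in the 4 high nerves and at 10699 and 10158 in wild-type and mutant nerve 5. The gene-level values do not separate calcitonin from calcitonin gene-related peptide, and reads shared with the paralog Calcb may have been split between both.

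Tac1, which encodes substance P and neurokinin A and spans 7554879 to 7565834 on chromosome 6, was at 253, 90.5 and 0.318 FPKM in the wild-type and at 137, 339 and 0.223 FPKM in the mutants, in the same order of libraries. Both libraries numbered 5 had intervals that reached 0, and the highest library was 1522 times the lowest. Gal, which encodes galanin, a peptide that sensory neurons make in quantity after injury, spans 3409919 to 3414472 on chromosome 19. It was at 18.1, 7.02 and 0.768 FPKM in the wild-type and at 8.56, 19.8 and 0.919 FPKM in the mutants. All 3 transcripts were highest in mutant nerve 3 and next highest in wild-type nerve 2.

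On the log2 scale the differences of Calca, Tac1 and Gal (mutant minus wild-type) were 0.39, 0.30 and 0.16 with standard errors of 2.35, 2.66 and 1.12, far smaller than the spread within a genotype. Without both libraries numbered 5 they were 0.52, 0.49 and 0.17. Relative to Calca, Tac1 was at 0.534 and 0.439 in nerves 2 and 4 of the wild-type and at 0.481 and 0.470 in mutant nerves 2 and 3, and Gal was at 0.0382, 0.0340, 0.0301 and 0.0274 in the same libraries. The proportions of the sensory peptides thus differed by less than 1.5 times between these 4 nerves, while their levels differed by more than 2 times.

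The same split of the libraries was seen in transcripts of the neurons that make these peptides. Scn10a, a sodium channel of nociceptors, was at 27.1, 12.6 and 0.0284 FPKM in nerves 2, 4 and 5 of the wild-type and at 19.6, 28.6 and 0.0227 FPKM in mutant nerves 2, 3 and 5. Isl1, a transcription factor of sensory neurons, was at 13.1, 4.66 and 0.467 and at 4.77, 14.4 and 0.347 FPKM. Both libraries numbered 5 were below the 4 others for 14 of 16 tested markers of sensory and motor neurons, for 3 of the 8 members (Calca, Tac1 and Gal) and for 17.0% of all genes tested. The summed level of these neuron markers was 1926, 867 and 154 FPKM in the wild-type nerves and 1037, 3302 and 113 FPKM in the mutant nerves. Uchl1, Tubb3 and Nefh were the most abundant of these markers, and Chat and Mnx1, markers of motor neurons, were listed at 0 in every library. Slc5a7, the choline transporter of motor neurons, was at 0.423, 2.82 and 0.334 FPKM in the wild-type and at 0.0327, 0.226 and 0.0281 FPKM in the mutants, lower without overlap but not passing the test (limma-adjusted p = 0.974, with a log2 fold change of -0.83). Relative to the summed level of the nociceptor channels Scn9a, Scn10a and Scn11a, Calca was at 8.83 and 7.65 in nerves 2 and 4 of the wild-type and at 6.49 and 12.3 in mutant nerves 2 and 3. In these bulk samples fewer cells of a type and less RNA per cell cannot be told apart, and the part of neuron content in the levels of the members was not tested.

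**Figure D2:**
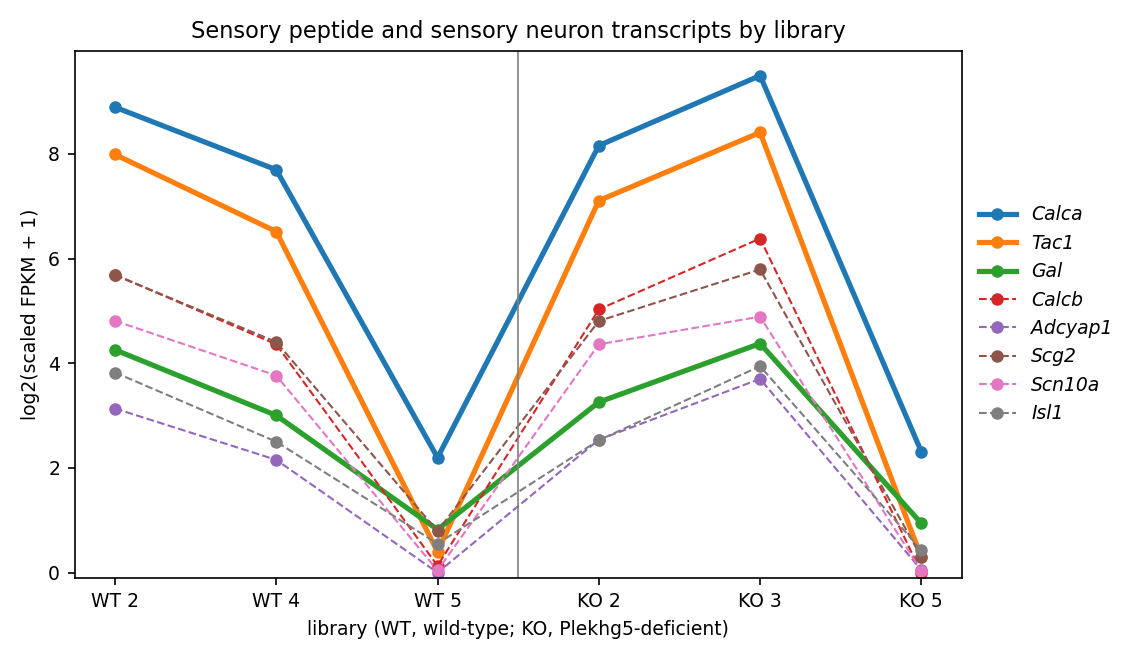
Level, as log2(scaled FPKM + 1), of Calca, Tac1 and Gal (solid lines) and of other sensory neuron transcripts (Calcb, Adcyap1, Scg2, Scn10a and Isl1, dashed lines) in each library; lines only join the points of 1 gene. All 8 transcripts are low in both libraries numbered 5, and the highest library of Calca is 201 times its lowest.

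Cck was the member with the largest ratio between the genotypes. It encodes the precursor of cholecystokinin and spans 121489825 to 121495689 on chromosome 9. It was at 31.1, 20.5 and 5.19 FPKM in nerves 2, 4 and 5 of the wild-type and at 0.494, 1.20 and 1.70 FPKM in mutant nerves 2, 3 and 5. Every mutant nerve was below every wild-type nerve, and the lowest wild-type nerve was 3.06 times the highest mutant nerve. The 95% intervals of these 2 libraries, 3.52 to 6.85 and 0.849 to 2.55 FPKM, did not overlap. The wild-type mean was 16.7 times the mutant mean, and the log2 difference was -2.97 (standard error 0.61). Among wild-type nerves the level was lowest in nerve 5, and the log2 difference was -3.93 without both libraries numbered 5. In mutant nerve 3, where Calca, Tac1 and the summed markers of sensory and motor neurons were highest, Cck was at 1.20 FPKM. Relative to Calca it was at 0.0656 and 0.0995 in nerves 2 and 4 of the wild-type and at 0.00174 and 0.00167 in mutant nerves 2 and 3.

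The profile of Cck over the 6 libraries was most like those of Mobp, Ttr, Alb, Ifit3 and Apoa2, out of 14963 other genes (mean of 1 FPKM or more). Likeness was the root mean square difference between the log2 profiles after centring each gene on its mean, and it ran from 0.73 (Mobp) to 0.93 (Apoa2) for these 5, against 1.23 for Sst, the most like of the other members at this level. Mobp encodes a myelin protein of oligodendrocytes and spans 120149742 to 120181484 on chromosome 9, the chromosome of Cck. It was at 13.98, 3.30 and 1.47 FPKM in nerves 2, 4 and 5 of the wild-type and at 0.379, 0.632 and 0.829 FPKM in mutant nerves 2, 3 and 5. Ttr encodes transthyretin, a carrier made in choroid plexus and liver. It was at 13.9, 8.67 and 13.8 FPKM in the wild-type and at 0.926, 1.85 and 1.61 FPKM in the mutants. Alb, which encodes albumin of the liver, was at 37.6, 4.86 and 2.90 and at 1.35, 1.78 and 2.42 FPKM, Apoa2, an apolipoprotein of the liver, at 13.0, 1.61 and 0 and at 0.123, 0.0945 and 0.159 FPKM, and the interferon-inducible gene Ifit3 at 61.4, 21.0 and 14.7 and at 7.73, 9.12 and 11.8 FPKM.

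Some markers of brain cells were lower in every mutant nerve, like Cck, and others were not. Of 10 central neuron markers, 3 were lower without overlap in the mutants (Gad1, Gad2 and Neurod6, beside 5.88% of all genes tested), and 0 passed the test (lowest adjusted p = 0.212 from limma). At an unadjusted p under 0.05, 3 were lower and 0 higher, beside 2.69% and 2.41% of all genes tested. Gad1, the enzyme that makes GABA, was at 2.24, 1.83 and 2.99 FPKM in the wild-type and at 0.0753, 0.297 and 0.358 FPKM in the mutants. In lists written after the values had been seen, 6 of 8 oligodendrocyte markers (Mobp, Mog, Opalin, Olig1, Olig2 and Ermn), 1 of 6 astrocyte markers (Slc1a2), 2 of 5 choroid plexus markers (Ttr and Kl) and 1 of 7 liver markers (Alb) were lower without overlap (5.88% of all genes), and Kcnj13 of the choroid plexus list was higher (5.67%). Mobp, Ttr and Alb had been found by their likeness to Cck, so nothing is read from their place in these counts. Snap25, a synaptic protein of all neurons, was highest in mutant nerve 3, at 219 FPKM, and the astrocyte markers Gfap and Aqp4 overlapped between the genotypes. Olig1, a transcription factor of oligodendrocytes, was at 1.96, 0.669 and 1.18 FPKM in the wild-type and at 0, 0.0798 and 0.1004 FPKM in the mutants, and Slc1a2, a glutamate transporter of astrocytes, at 5.07, 5.01 and 3.27 and at 0.744, 0.986 and 1.02 FPKM. The summed level of the central neuron list, which Snap25, Camk2a and Nrgn lead and of which sensory neurons and muscle also express members, ranged from 117 to 248.9 FPKM in the wild-type and from 64.7 to 316 FPKM in the mutants. The summed oligodendrocyte list, which Cnp of Schwann cells dominates, ranged from 137 to 166 and from 144 to 222 FPKM, and the astrocyte list from 43.1 to 76.9 and from 30.1 to 69.0 FPKM. The choroid plexus list ranged from 46.4 to 56.7 and from 43.2 to 51.7 FPKM, and the liver list from 5.28 to 62.7 and from 4.45 to 6.35 FPKM. The part of these transcripts in the level of Cck was not tested.

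**Figure D3:**
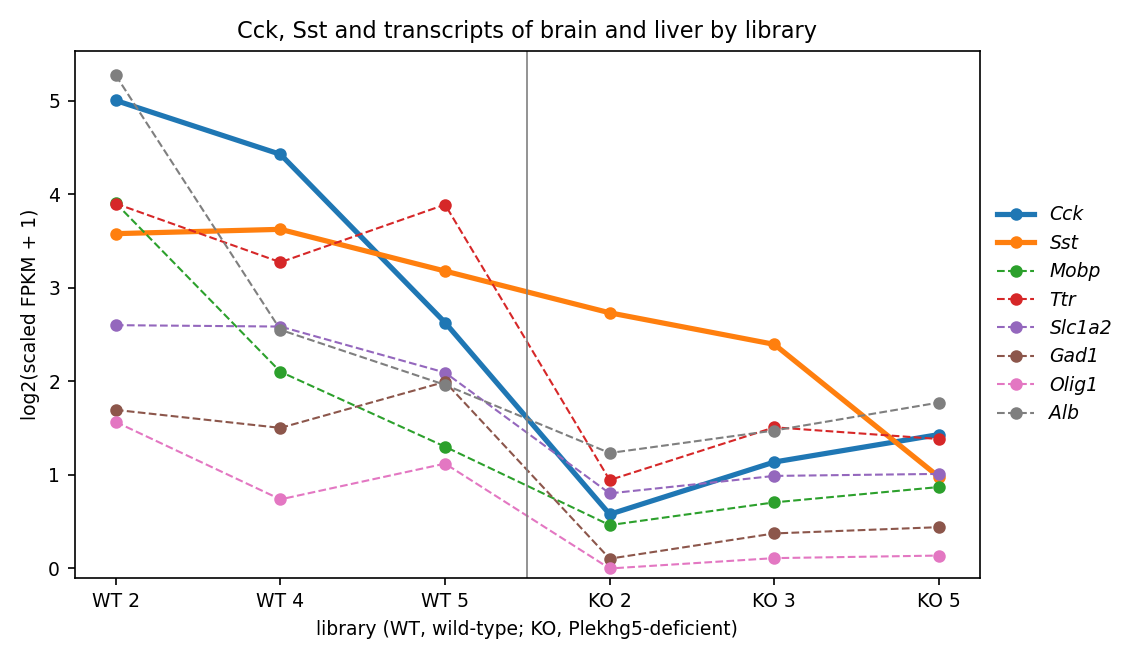
Level, as log2(scaled FPKM + 1), of Cck and Sst (solid lines) and of transcripts of brain and liver cells (dashed lines: Mobp, Ttr, Slc1a2, Gad1, Olig1 and Alb) in each library; lines only join the points of 1 gene, and the vertical line divides the genotypes. Mobp, Ttr and Alb were picked by likeness to Cck, and Slc1a2, Gad1 and Olig1 after their values were seen. Their shared direction with Cck is therefore no test, and other markers of the same lists overlapped between the genotypes. For these 8 transcripts all KO libraries lie below all WT libraries, with Cck between 5.19 and 31.1 FPKM in the wild-type and between 0.494 and 1.70 FPKM in Plekhg5-deficient nerves.

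The genes that start within 500 kb of Cck showed log2 fold changes closer to 0. Mobp, on the same chromosome and most like Cck in profile, starts outside this window. Of 21 genes in the window, 18 were tested, and their log2 fold changes ran from -0.40 to 0.66, with 0 called at an adjusted p under 0.05 (lowest adjusted p = 0.845 from limma). At an unadjusted p under 0.05, 1 (Deb1) was higher, beside 2.41% of all genes tested. Of the 18, 3 were lower without overlap (Sec22c, Zfp651 and Cyp8b1) and 1 higher (Deb1), beside 5.88% and 5.67% of all genes. Cyp8b1 was at most at 0.341 FPKM, and its wild-type mean was 7.65 times the mutant mean, a ratio that the log2(FPKM + 1) scale understates. Trak1, the nearest expressed neighbour, was at 17.3, 17.5 and 13.1 FPKM in the wild-type and at 14.8, 14.9 and 11.2 FPKM in the mutants. Vipr1, a receptor for vasoactive intestinal peptide that also lies in this window, was at most at 0.242 FPKM.

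Sst and Vip were also lower in every mutant nerve, by smaller ratios. Sst, the precursor of somatostatin, which inhibits the release of other hormones and transmitters, spans 23889581 to 23890844 on chromosome 16. It was at 11.0, 11.3 and 8.06 FPKM in nerves 2, 4 and 5 of the wild-type and at 5.65, 4.26 and 0.971 FPKM in mutant nerves 2, 3 and 5. The genotypes did not overlap, but the interval of wild-type nerve 5 (5.84 to 10.3 FPKM) overlapped that of mutant nerve 2 (4.17 to 7.13 FPKM). The wild-type mean was 2.79 times the mutant mean (log2 difference -1.43, standard error 0.46), and the log2 difference was -1.06 without both libraries numbered 5. In each genotype Sst was lowest in nerve 5.

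Vip, which encodes vasoactive intestinal peptide, a vasodilator, spans 5639218 to 5647614 on chromosome 10. It was at 0.435, 0.685 and 0.298 FPKM in the wild-type and at 0.111, 0.142 and 0.143 FPKM in the mutants. All 6 levels were low, and the intervals of 2 mutant nerves reached 0. The interval of wild-type nerve 5 (0.0315 to 0.565 FPKM) covered the levels of all 3 mutant nerves. The wild-type mean was 3.59 times the mutant mean, and the log2 difference was -0.37 (standard error 0.13) on a scale that understates low genes.

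**Figure D4:**
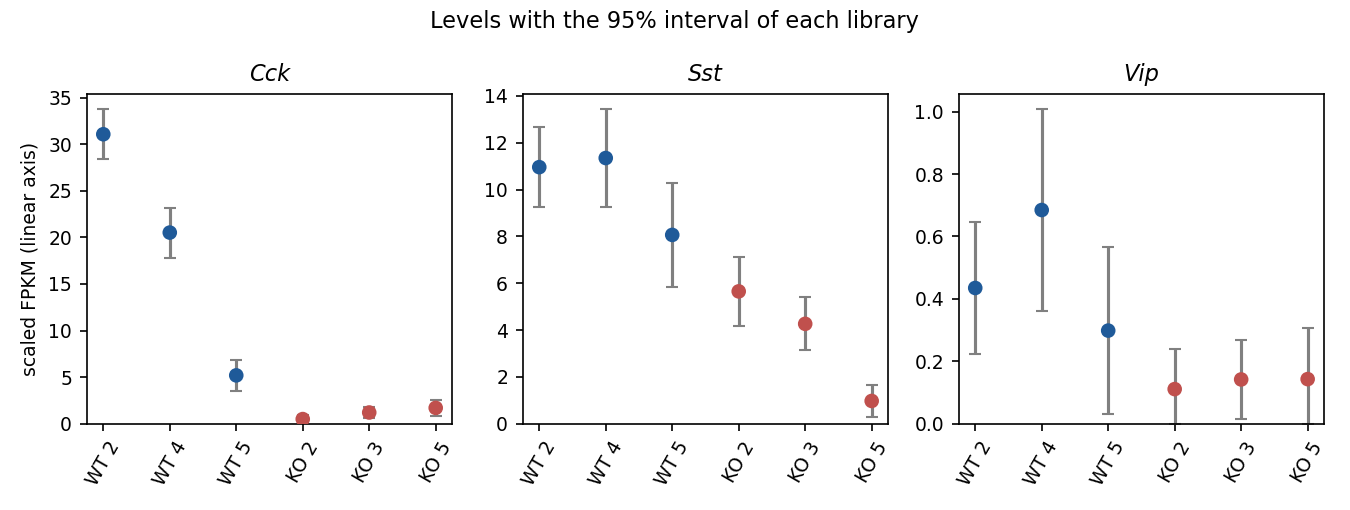
Scaled FPKM of Cck, Sst and Vip in each wild-type (WT, blue) and Plekhg5-deficient (KO, red) library on linear axes; bars are the 95% intervals that Cufflinks reported for that library. For Cck the lowest wild-type library (5.19 FPKM) and the highest Plekhg5-deficient library (1.70 FPKM) have intervals that do not overlap, whereas for Sst and Vip intervals of the 2 genotypes overlap.

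Penk and Npy were present in all 6 nerves, and the highest library was 3.85 and 4.37 times the lowest. Penk, the precursor of the enkephalins, spans 4133531 to 4138819 on chromosome 4. It was at 28.6, 13.5 and 52.0 FPKM in nerves 2, 4 and 5 of the wild-type and at 29.8, 17.0 and 32.0 FPKM in mutant nerves 2, 3 and 5, and the genotypes overlapped (log2 difference -0.10, standard error 0.49). The log2 difference of Penk was 0.18 without both libraries numbered 5. Wild-type nerve 5 was the highest of its genotype for Penk. Mutant nerves 2 and 5 had overlapping intervals, and their order turned in the FPKM as deposited (32.6 and 23.8). The summed fibroblast and perineurium list was highest in wild-type nerve 5 (3571 FPKM) and lowest in mutant nerve 5 (2187 FPKM), with 0 of 12 markers called at a limma-adjusted p under 0.05 (0 at an unadjusted p under 0.05). Its part in the level of Penk was not tested.

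Npy, which encodes neuropeptide Y, a vasoconstrictor, spans 49822710 to 49829507 on chromosome 6. It was at 3.87, 7.39 and 6.76 FPKM in the wild-type and at 4.59, 16.9 and 10.9 FPKM in the mutants. Mutant nerve 3 was above all wild-type nerves, and mutant nerve 2 was not (log2 difference 0.64, standard error 0.45). Mutant nerve 5 was above them as scaled, with overlapping intervals, but as deposited (8.13 FPKM) it was below wild-type nerve 4 (8.26 FPKM). Most markers of sympathetic neurons were low, with Dbh, the enzyme that makes noradrenaline, between 0 and 0.364 FPKM, and the noradrenaline transporter Slc6a2 between 0.926 and 1.65 FPKM in the wild-type and between 0.577 and 0.643 FPKM in the mutants. Th, the rate-limiting enzyme of catecholamine synthesis, which some sensory neurons also express, was at 16.2, 8.80 and 0.0920 FPKM in the wild-type and at 14.6, 15.4 and 0.114 FPKM in the mutants. The summed list ranged from 3.34 to 18.2 and from 1.88 to 18.4 FPKM. Th was most of the sum in the 4 other nerves, but not in the libraries numbered 5.

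Among receptors for these peptides, none of 22 genes tested was called in either direction at a limma-adjusted p under 0.05 (lowest adjusted p = 0.447). At an unadjusted p under 0.05, 1 was lower and 0 were higher, beside 2.69% and 2.41% of all genes tested. The median log2 fold change was -0.029, beside 0.0065 over all genes. Ramp3, an accessory protein that turns the calcitonin receptor-like receptor into an adrenomedullin receptor (chromosome 11, 6658521 to 6677475), was the gene at an unadjusted p under 0.05. It was at 5.98, 2.89 and 2.81 FPKM in nerves 2, 4 and 5 of the wild-type and at 0.831, 0.667 and 0.614 FPKM in mutant nerves 2, 3 and 5, with no overlap and a log2 fold change of -1.46 (standard error 0.27), which was -1.63 without both libraries numbered 5. Its partner Calcrl, the receptor of calcitonin gene-related peptide, was at 4.28 FPKM ± 1.88 and 3.73 ± 1.33 (SD, n = 3 each), Ramp1, which completes that receptor, at 3.88 ± 2.55 and 2.204 ± 0.736, and Ramp2 at 107 ± 52.7 and 106 ± 30.7 FPKM.

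The receptors of cholecystokinin were low. Cckar was at 1.75, 0.674 and 0.0311 FPKM in the wild-type and at 1.23, 2.42 and 0 FPKM in the mutants, in the same order of libraries as Tac1. Cckbr was at most at 0.631 FPKM. Npy1r, the main vascular receptor of neuropeptide Y, was the steadiest, at 5.91 FPKM ± 0.712 and 5.80 ± 0.348. Oprm1 and Npy2r were among those lowest in both libraries numbered 5. Oprm1, the µ opioid receptor, was at 1.59, 1.41 and 0 and at 2.41, 1.72 and 0.0601 FPKM. Npy2r, an inhibitory receptor on nerve endings, was at 2.67, 1.53 and 0.137 and at 1.26, 1.68 and 0.0656 FPKM. For 8 of the 22 receptors both libraries numbered 5 were the lowest, as for 17.0% of all genes tested. Galr1, Galr2, Oprd1, Oprk1, Npy5r, Vipr2, Sstr1, Sstr2, Sstr4 and Tacr1, receptors of galanin, opioids, neuropeptide Y, vasoactive intestinal peptide, somatostatin and substance P, had overlapping genotypes and levels under 2 FPKM.

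**Figure D5:**
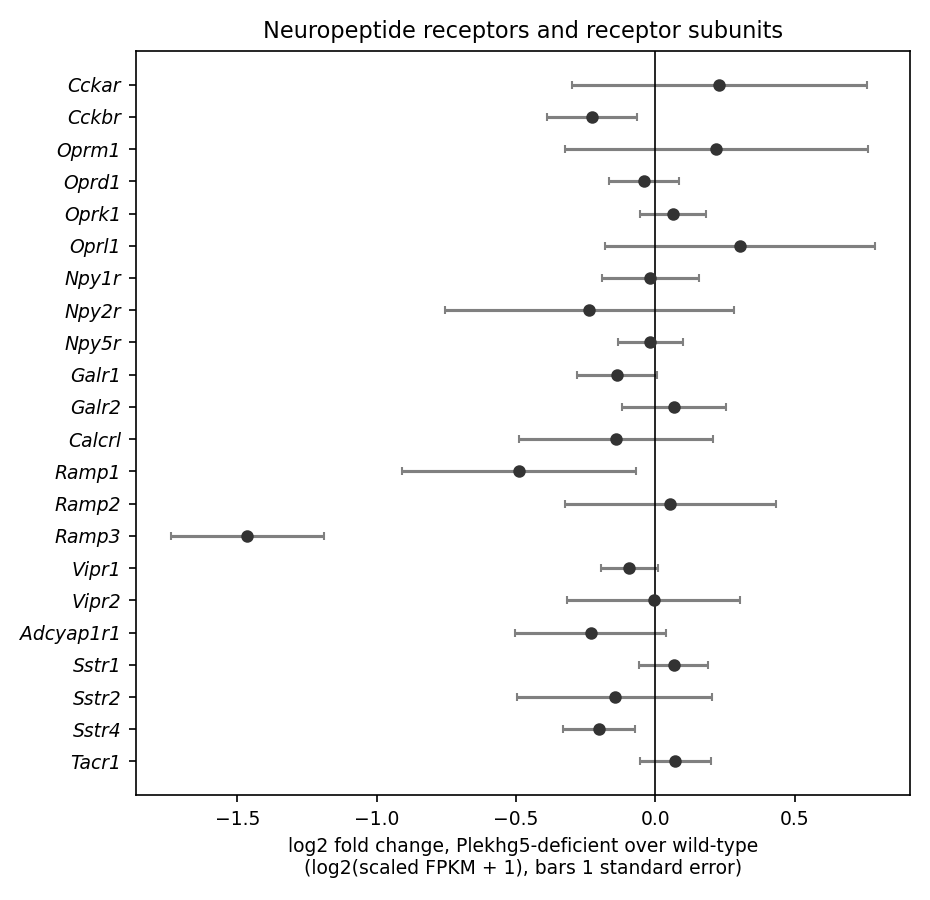
Log2 fold change (Plekhg5-deficient over wild-type, on log2(scaled FPKM + 1), with bars of 1 standard error from limma) of the 22 receptor genes tested. Ramp3 lies at -1.46, apart from the other 21, and no gene passed at an adjusted p under 0.05.

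Of 22 tested genes that cut, amidate and store the peptides, 0 were lower and 0 higher at a limma-adjusted p under 0.05 (0 at an unadjusted p under 0.05). For 16 of the 22 both libraries numbered 5 were the lowest, as for 17.0% of all genes tested. Scg2, the granule protein secretogranin II, was at 50.4, 20.2 and 0.733 FPKM in the wild-type and at 27.0, 54.4 and 0.234 FPKM in the mutants, and Scg3 at 124, 74.1 and 3.73 and at 97.6, 154 and 2.004 FPKM. Pcsk2, a prohormone convertase, was at 10.8, 4.13 and 0.578 and at 5.07, 12.7 and 0.183 FPKM. Cpe, the carboxypeptidase that trims the cut ends, was high in every library (244 FPKM ± 77.7 and 215 ± 51.0), as was Ctsl, a lysosomal protease, and Pam, the amidating enzyme, differed little between libraries (47.7 ± 7.72 and 48.5 ± 6.36 FPKM). Peptidases that end the action of the peptides did not pass in any case, with 0 of 14 called at an adjusted or an unadjusted p under 0.05. Mme (neprilysin), which degrades substance P and enkephalins, was at 36.4 ± 16.6 and 30.7 ± 5.18 FPKM, the aminopeptidase Npepps at 27.0 ± 2.57 and 23.8 ± 3.35, and the insulin-degrading enzyme Ide at 17.0 ± 2.58 and 20.2 ± 5.91 FPKM. For 2 of the 14 both libraries numbered 5 were the lowest, beside the same 17.0% of all genes.

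Of 43 other neuropeptide precursors listed, 28 were tested and 6 were listed at 0 in every library. Nmb, which encodes neuromedin B, was the most abundant, at 128, 56.7 and 19.4 FPKM in the wild-type and at 86.5, 212 and 15.7 FPKM in the mutants. Calcb, the paralog of Calca, was at 50.7, 19.5 and 0.0947 and at 31.6, 82.4 and 0 FPKM, and Adcyap1, the precursor of the peptide PACAP, at 7.78, 3.45 and 0 and at 4.81, 12.01 and 0.0348 FPKM. Relative to Calca, Adcyap1 was at 0.0164, 0.0167, 0.0169 and 0.0167 in nerves 2 and 4 of the wild-type and nerves 2 and 3 of the mutants. Nts, the precursor of neurotensin, was highest in mutant nerve 3 and next highest in mutant nerve 2, at 4.85, 3.46 and 1.01 and at 11.4, 50.8 and 2.41 FPKM (log2 fold change 1.79, standard error 0.96). Without both libraries numbered 5 its log2 fold change was 2.31 (unadjusted p = 0.0161 and adjusted p = 0.728 from limma). For 9 of the 28 both libraries numbered 5 were the lowest, as for 17.0% of all genes tested.

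Over all genes tested, 0 of these 28 were called at a limma-adjusted p under 0.05 (lowest adjusted p = 0.573). At an unadjusted p under 0.05, 0 were lower and 2 were higher, beside 2.69% and 2.41% of all genes tested. Ucn2, the stress peptide urocortin 2, was at 0.117, 0.232 and 0.364 FPKM in the wild-type and at 1.07, 2.25 and 1.09 FPKM in the mutants (log2 fold change 0.97, standard error 0.22). Npw, neuropeptide W, was at 0.129, 0.0959 and 0.301 and at 0.745, 1.29 and 0.600 FPKM (log2 fold change 0.66, standard error 0.17). The log2 fold changes of Ucn2 and Npw were 1.19 and 0.89 without both libraries numbered 5. With Nmu and Gnrh1, 4 of the 28 were higher without overlap, beside 5.67% of all genes tested. Taking the 4 lists of receptors, processing genes, peptidases and other precursors as a whole, 86 genes were tested, 44 had a log2 fold change below 0 and 42 above, and the median was -0.012.

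Cell types of the nerve and of other tissues were checked with 17 lists of markers, 4 of them written after values were seen. Of 150 genes tested, 0 passed at a limma-adjusted p under 0.05 (lowest adjusted p = 0.118). At an unadjusted p under 0.05, 9 were lower and 1 higher, beside 2.69% and 2.41% of all genes. The lower genes were 3 central neuron and 2 oligodendrocyte markers, and 1 each of the astrocyte, choroid plexus, sympathetic neuron and adipocyte lists. Schwann cell transcripts, Pmp22 and Mbp among them, were abundant in each library, with a summed level from 10814 to 19466 FPKM in the wild-type and from 11119 to 19108 FPKM in the mutants, as the label of the tissue asks. T-cell markers summed to 148 FPKM in wild-type nerve 5 and to between 2.58 and 9.63 elsewhere, and B-cell and lymph node markers to 426 there and to between 31.1 and 204 elsewhere. Skeletal muscle markers ranged from 2334 to 15070 FPKM in the wild-type and from 275 to 39516 in the mutants, highest in mutant nerve 5, as were erythroid markers (229900 FPKM, and at most 24290 in wild-type nerves). Macrophage markers ranged from 300.3 to 705 and from 316 to 767 FPKM, mast cell markers from 88.6 to 278 and from 76.7 to 168, adipocyte markers from 1598 to 1982 and from 574 to 4512, and endothelial markers from 136 to 221 and from 106 to 309 FPKM. Their part in the levels of the 8 neuropeptide transcripts was not tested.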

How the data were processed

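FPKM values were deposited as 1 table per library. The authors trimmed reads with Trim Galore 0.4.0, mapped them to GRCm38 with STAR 2.5.0a and estimated FPKM with 95% intervals per gene in each library with Cufflinks 2.2.1. No source used here gives read counts, depth, the strand setting or the annotation release, so reads of overlapping antisense genes cannot be told apart.

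Repeated rows of 19 identifiers were added up, and each library was divided by its median-of-ratios factor (0.745 to 1.12). Genes whose mean reached 0.1 FPKM in a genotype entered limma 3.58.1 in R 4.3.3 as log2(FPKM + 1), in a model of genotype alone, with trended variances and Benjamini-Hochberg adjustment over all genes. The code was tested on simulated data. Coordinates are the authors', with starts counted from 1. Replicates are separate libraries of 1 genotype; that each came from its own animal is the study's statement. Figures were drawn with matplotlib 3.10.9.

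The members and lists were chosen with earlier results of these data known, and the lists of oligodendrocyte, astrocyte, choroid plexus and liver markers after the values were seen. Named by rule were the members, Plekhg5, pathway genes at an unadjusted p under 0.05, the receptors, the 3 most abundant genes of a list, the 5 genes most like Cck and genes within 500 kb of it. Some genes of the rule are given only in counts. All other genes and the ratios to Calca and to sodium channels were chosen after their values were seen. Also tried were a pseudocount of 0.1 or 0.5, no minimum or one of 1 FPKM, deposited FPKM without scaling, scaling to the upper quartile, untrended variances, a replicate block and leaving out libraries.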

Additional observations from a re-analysis of the deposited data

How the results depend on the processing

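The log2 difference of Cck stayed below 0 under every alternative, between -3.68 and -2.46 with any 1 library left out and -3.93 without both libraries numbered 5, which was added after the values were seen. The number of members with a lower mean was 4, between 4 and 7 with 1 library left out, 7 with the replicate block, and 3 with a minimum of 1 FPKM (which drops Vip) or without both libraries numbered 5. Calca ran from -1.65 (without wild-type nerve 5) to 2.57 (without Plekhg5-deficient nerve 5), Tac1 from -1.99 to 2.81 and Gal from -0.78 to 1.13 with the same libraries left out, so that 1 library decides their sign. Penk ran from -0.59 to 0.34 and also turned its sign without wild-type nerve 5 or Plekhg5-deficient nerve 3, Npy from 0.26 to 1.10, Sst from -1.77 to -0.91 and Vip from -0.46 to -0.27, and Vip was at -1.25 and -0.60 with pseudocounts of 0.1 and 0.5. Over all genes, those lower at an adjusted p under 0.05 from limma numbered 2, and 1 with a pseudocount of 0.1 or a minimum of 1 FPKM, and 0 with no minimum, with the replicate block, without both libraries numbered 5 and with any 1 library left out. Those higher numbered 6, and 2 with no minimum, 0 with the block, 9 without both libraries numbered 5, and between 0 and 5 with 1 library left out. Where 0 genes were lower over all genes, Plekhg5 itself was not called, so a count of 0 pathway genes says little there. Pathway genes called numbered 0 in each direction under every alternative. At an unadjusted p under 0.05 from limma, 8 of 86 were lower with the block, beside 616 of all 21285 genes tested, and between 1 and 3 otherwise. Between 1 (with a minimum of 1 FPKM) and 3 were higher under every alternative, with 3 in several settings, among them that without both libraries numbered 5. The deviations of the libraries numbered 2 correlated at 0.0730 and those numbered 5 at 0.580 between genotypes. Libraries with different numbers correlated between -0.522 and 0.457. With 2 pairs and no label for what a number marks, what such libraries share beyond the number cannot be told. The precision of Vip is low, since its intervals reach 0 in 2 libraries.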
